A study of Caenorhabditis elegans with 51 samples.

Results

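A set of genes of sex determination and X chromosome dosage compensation in *Caenorhabditis elegans* were followed across dissected cell groups of single embryos at about the 100-cell stage. They were chosen by name, and all 10 were found among the 31383 genes listed for each library: *xol-1*, *sdc-1*, *sdc-2*, *sdc-3*, *her-1*, *sex-1*, *fox-1*, *dpy-27*, *dpy-21* and *dpy-30*. Embryos carried a fluorescent reporter that marked the cells to collect, pCEH-51::mNG for MS, pFKH-2::mNG for D, and pR02D3.1::mKate2 together with pHLH-1::mNG for C. The marked cells of an embryo were drawn off by aspiration, and what was left of that embryo became a further library (in the C series, both other cell groups of it did). MS descendants (MS+), which form pharynx and muscle, and the cells left over (MS-) had n = 7 each, as had D descendants (D+), which form body wall muscle, and their remainder (D-). The C series held the internalizing Cxp cells (C-in), the Cxa cells that stay outside (C-out) and all other cells (C-), with n = 5 each. The labels state neither the sex of an embryo nor any mutation, no control without a reporter was used here, and each series has 1 reporter genotype, so a difference between series cannot be told apart from one between strains.

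Sex in this worm follows the number of X chromosomes: XX animals are hermaphrodites and XO animals are males. X-linked signal elements such as SEX-1, a nuclear hormone receptor, and FOX-1, an RNA-binding protein, lower the activity of *xol-1*, the early switch that directs male development where it is active. Where XOL-1 is low, the SDC proteins recruit a condensin-like complex to both X chromosomes of XX animals to reduce X transcription, and they repress *her-1*, which encodes a secreted signal for male fate. DPY-27 is the condensin subunit specific to that complex, DPY-21 a histone H4 lysine 20 demethylase bound to it, and DPY-30 a subunit shared with the COMPASS histone methyltransferase.

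The 43 accepted libraries came from 19 embryos and held between 416394 and 3054633 counts on genes. A count of 0 allows up to 3 counts, that is 0.982 to 7.205 CPM depending on the library, and this floor covers counting error only, since reads after amplification are not separate molecules. Values are RPKM, read counts scaled to gene length and to the mapped reads of the library, and a gene is called detected above 25 RPKM, the limit the study used. Collected cells gave fewer detected genes than remainders: the median was 2811 in MS+ and 5116 in MS-, 2054 in D+ and 4280 in D-, and the C series gave 2316 for C-in, 2672 for C-out and 4969 for C-. *ceh-51*, which drives the MS reporter, averaged 690.4 RPKM in MS+ and 97.8 in MS-. *fkh-2* averaged 665.8 RPKM in D+ and 51.1 in D-, and *hlh-1*, a muscle regulator, 695.9 in C-in and 38.1 in C-out. The D+ libraries were uneven in this respect: *fkh-2* ranged from 2.35 to 1749 RPKM among them, and the summed D and muscle markers from 66.6 to 8005 RPKM. *ceh-51* ranged from 8.44 to 2445 RPKM in MS+. The list of 4 C markers (*pal-1*, *vab-7*, *elt-1*, *nhr-171*) mixes genes of both C groups. The paper expects *elt-1* and *nhr-171* to be higher in Cxa and *vab-7* in Cxp cells. A sum over the list therefore cannot set C-in apart from C-out. The median sum was 109 RPKM in C-in (range 4.45 to 923), 184 in C-out (26.9 to 226) and 220 in C- (99.5 to 551). Markers of other cell types reached high sums in some collected libraries. In MS+ the gut sum reached 2964 RPKM (median 21.5) and the neuron sum 615 (median 12.1). In D+ the epidermal sum reached 1225 RPKM (median 10.7), the neuron sum 794 (median 12.7) and the germline sum 1020 (median 3.09). In C-out the neuron sum reached 3023 RPKM (median 423), the gut sum 702 (median 58.2) and the germline sum 101 (median 1.21). In C-in the epidermal sum reached 956 RPKM (median 25.4). The C-out libraries had 1550 to 5330 detected genes. Whether such libraries held other cells was not tested. Each library is a bulk sample, in which fewer cells of a type and less RNA per cell cannot be told apart.

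Of the members, *xol-1*, *sdc-1*, *sdc-2*, *sex-1* and *fox-1* lie on the X chromosome, *sdc-3*, *her-1*, *dpy-21* and *dpy-30* on V and *dpy-27* on III (Ensembl annotation of WBcel235). Their mean over the 43 libraries ranged from 10.9 RPKM for *xol-1* to 262 for *dpy-30*, which placed them between the percentiles 78.0 and 98.3 of all genes. *dpy-30*, *sex-1* and *dpy-21* were detected in 40, 35 and 40 libraries, *dpy-27* in 31, *fox-1* in 26, *sdc-2* in 23, *sdc-1* in 17, *her-1* in 13, and *sdc-3* and *xol-1* in 7 each. *xol-1* had no count in 22 libraries and *her-1* in 21. Exons of *dpy-30* overlap those of *rnp-1* on the same strand, and those of *sdc-2* and *fox-1* overlap the noncoding genes *anr-16* and *R04B3.6* on the other strand. Whether the counting used strand is not given in the sources used here, so the values of these 3 members are uncertain by the share of such reads.

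The first question was whether a member differed anywhere among the 7 groups. By edgeR's quasi-likelihood F test over all 43 libraries, in which genes needed more than 25 RPKM in at least 5 libraries, 5 of the 10 members passed after Benjamini-Hochberg adjustment over 6840 genes: *xol-1* (F = 9.61, adjusted p = 4.997e-05), *sdc-2* (F = 4.80, adjusted p = 0.004596), *her-1* (F = 4.40, adjusted p = 0.007466), *sdc-3* (F = 4.04, adjusted p = 0.01158) and *sdc-1* (F = 3.56, adjusted p = 0.02075). Over all genes the same test called 33.1%. *xol-1* passed the filter through the groups where it was high, since 6 of its 7 libraries above 25 RPKM were MS- and 1 was D-. *dpy-30* missed the threshold (adjusted p = 0.08114), and *sex-1*, *fox-1*, *dpy-27* and *dpy-21* had adjusted p of 0.7767, 0.447, 0.3996 and 0.5643. With the embryo as a block, which leaves only differences within a series, *xol-1* alone passed (adjusted p = 0.03711), and *sdc-1*, *sdc-2*, *sdc-3* and *her-1* had adjusted p of 0.594, 0.1957, 0.2841 and 0.1977. limma on log2(RPKM + 25) called *xol-1* and *sdc-1*, and DESeq2 called the 5 members and *dpy-30*. Without MS embryo 7 the calls of *sdc-1* (adjusted p = 0.08535) and *her-1* (adjusted p = 0.07831) were lost.

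**Figure D1:**
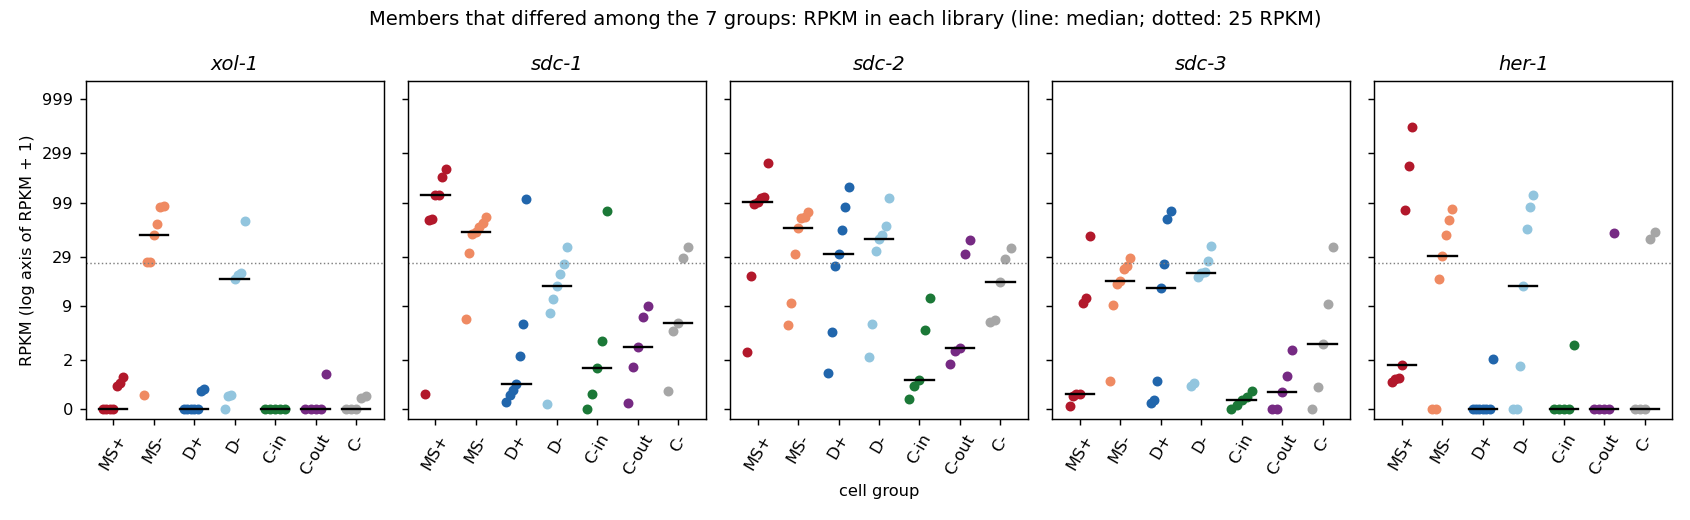
RPKM in each library, on a log axis of RPKM + 1, for *xol-1*, *sdc-1*, *sdc-2*, *sdc-3* and *her-1* in the 7 cell groups, each point 1 library, the line the median and the dotted line 25 RPKM. *xol-1* lies above 17 RPKM in 6 MS- and 4 D- libraries and at or below 1.17 RPKM in all other libraries.

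*xol-1*, the switch gene of male development, was found in the remainders of the MS and D series and hardly elsewhere. In MS- it stood at 0.38, 92.5, 25.7, 90.1, 60.4, 25.5 and 47.0 RPKM in embryos 1 to 7, with 1049 counts in all. The MS+ libraries of the same embryos held 0 to 1.04 RPKM and 6 counts in all, so the groups overlapped only through the MS- library of embryo 1. In D- it was at 18.7, 0.34, 64.6, 0.36, 17.1, 20.0 and 0 RPKM in embryos 1, 2, 3, 4, 6, 7 and 8, and at 0.56 RPKM or less in every D+ library. All 5 C-in libraries were at 0, C-out reached 1.17 RPKM in 1 library, and C-, also a remainder, stayed between 0 and 0.35 RPKM. The *xol-1* level thus averaged 48.8 ± 34.6 RPKM in MS- (SD, n = 7), 17.3 ± 22.8 in D- (n = 7) and 0.13 ± 0.18 in C- (n = 5).

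Too few libraries of a single series held *xol-1* for the count test there, so its mean log2(RPKM + 25) was compared with a two-sided exact permutation test, adjusted over all genes below the filter with a library above 25 RPKM. It was lower in MS+ than in MS- by 1.38 on that scale, which understates changes of low genes (exact permutation p = 0.002331, adjusted p = 0.04644), and MS- was higher in 6 of 7 embryos. The test called 5.02% of the 4921 genes of this kind. *xol-1* was among them only through MS-, where 6 of 7 libraries were above 25 RPKM, against 0 of 7 in MS+. In the D series it entered such a set only through 1 D- library. With sign changes within embryos the exact permutation p was 0.03125 and its adjusted p 0.2163. The adjusted p lay between 0.05096 and 0.1344 when any of the 7 embryos was left out, so the call was lost each time. Fewer assignments are possible there, so these fits cannot tell dependence on 1 embryo from the coarser test. The difference lay between -1.611 (without embryo 1, exact permutation p = 0.002165) and -1.235 (without embryo 2). Between D+ and D- the difference was -0.60 (exact permutation p = 0.02331, adjusted p = 0.157), with D- higher in 6 of 7 embryos, and the test called 0% of 5427 genes there although 1119 had an unadjusted p below 0.05. MS+ libraries had 1496 to 3714 detected genes and MS- libraries 3333 to 5387, and the part of this in the *xol-1* result was not tested.

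The remainders were then compared across series, a comparison added after the levels had been seen. C- held 2 *xol-1* counts in all, so fitted fold changes over it rest on the prior count and are not given. By edgeR *xol-1* did not pass between MS- and C- (adjusted p = 0.09599). DESeq2 (adjusted p = 0.0004375) and limma called it, and 0% of 6840 genes were called by edgeR in that comparison, with 350 at an unadjusted p below 0.05, 137 called by DESeq2 and 80 by limma. It did not pass between D- and C- either (edgeR adjusted p = 0.5049), where DESeq2 called it and limma did not. Here edgeR called 0% of all genes, with 220 at an unadjusted p below 0.05, 43 called by DESeq2 and 2 by limma. No other member had an unadjusted p below 0.05 in either comparison. C- libraries had 3946 to 5491 detected genes (median 4969) and MS- libraries 3333 to 5387 (median 5116). The median summed marker level in MS- and C- was 903 and 969 RPKM for gut, 331 and 343 for neurons, 387 and 494 for epidermis, 906 and 605 for D and muscle, 356 and 220 for C, 179 and 104 for MS, and 44.3 and 5.86 for germline. The gut sum ranged from 237 to 1780 RPKM in MS- and from 6.39 to 1187 in C-. The part of these differences in the *xol-1* levels was not tested.

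**Figure D2:**
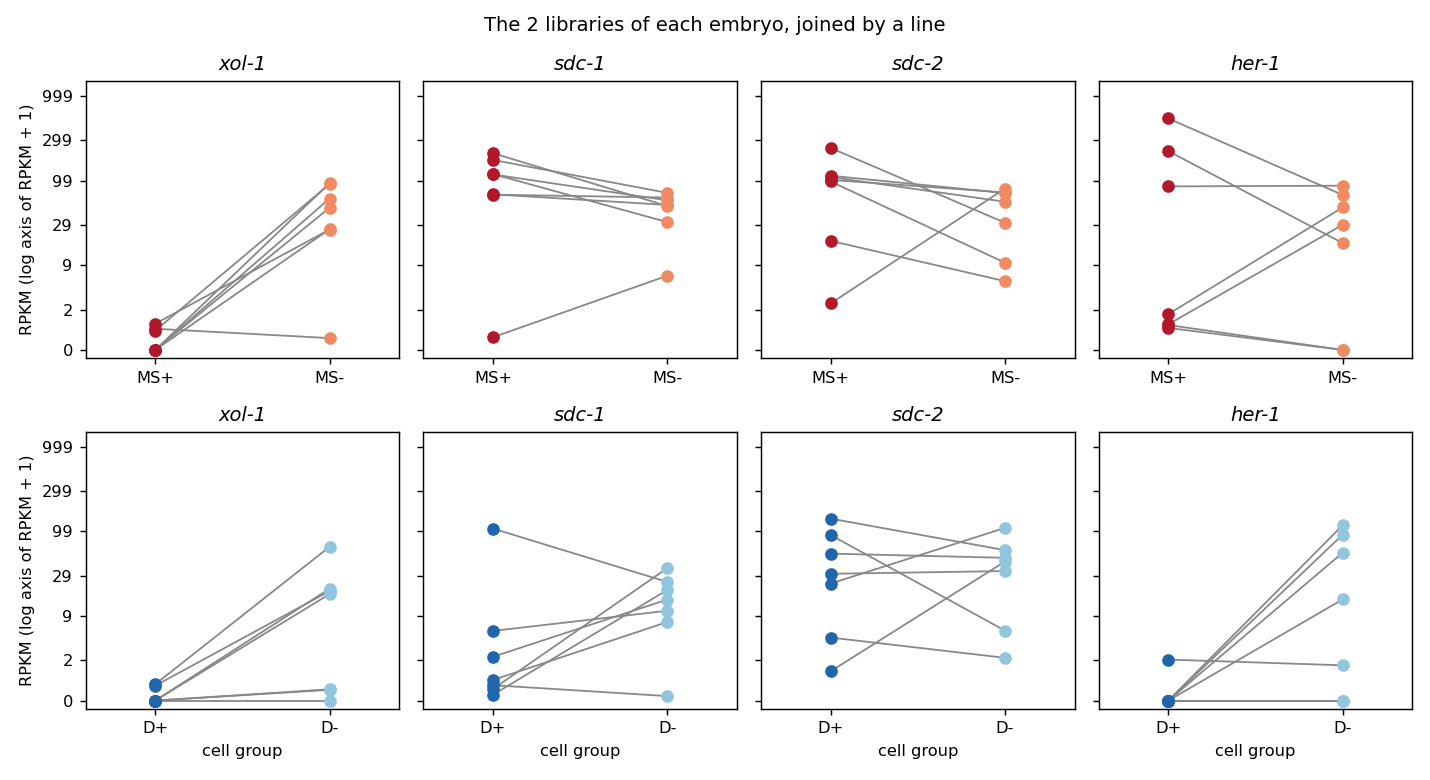
RPKM, on a log axis of RPKM + 1, of *xol-1*, *sdc-1*, *sdc-2* and *her-1* in the collected cells and the remainder of each embryo of the MS series (upper row) and the D series (lower row), joined by a line per embryo. *xol-1* is higher in the remainder in 6 of 7 embryos of either series, in embryos 2 and 4 of the D series only by 1 count against 0.

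*sdc-1*, a zinc finger protein that acts in both dosage compensation and *her-1* repression, was highest in MS+. The MS+ libraries held 118, 0.41, 67.2, 67.9, 117, 174 and 210.0 RPKM in embryos 1 to 7, and the MS- libraries 31.3, 6.53, 62.1, 50.6, 57.5, 70.6 and 49.05. MS+ was higher in every embryo except embryo 2, and the ranges overlapped. In D+ only embryo 7 reached a high value (106 RPKM) while the other 6 libraries held between 0.17 and 5.65, and in C-in only embryo 1 did (82.5 RPKM, against 0 to 3.59 in the other 4). D- ranged from 0.13 to 35.7 RPKM with a median of 14.6, C- from 0.51 to 35.7 with a median of 5.78, and C-out from 0.14 to 8.91 with a median of 3.01. By edgeR the log2 fold change of MS+ over MS- was 1.73 ± 0.82 (SE), which did not pass (adjusted p = 0.6153). D+ and D- differed by -0.25 in mean log2(RPKM + 25) (exact permutation p = 0.5682, adjusted p = 0.8307).

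*sdc-2*, the gene that in XX embryos starts assembly of the complex on X, was also highest in MS+ and lowest in C-in. The MS+ libraries held 96.6, 18.4, 113, 2.54, 109, 101 and 242 RPKM in embryos 1 to 7. The C-in libraries held 4.81, 0.68, 0.26, 10.95 and 0.92 RPKM in embryos 1, 2, 4, 5 and 6, so that 6 of 7 MS+ libraries lay above all of C-in. D+ spread from 1.22 to 140.0 RPKM with a median of 30.4, MS- from 5.49 to 79.7 with a median of 55.3 and D- from 2.2 to 109 with a median of 42.9. C-out ranged from 1.74 to 42.4 RPKM with a median of 2.9, and C- from 5.96 to 34.9 with a median of 15.9. Within series, the log2 fold change was 1.58 ± 0.74 for MS+ over MS- (edgeR adjusted p = 0.6153) and 0.60 ± 0.92 for D+ over D- (adjusted p = 0.8747). C-in was below C- in 5 of 5 embryos, by 0.56 in mean log2(RPKM + 25) (exact permutation p = 0.03175, adjusted p = 0.2375). That test called 0% of 3561 genes while 714 had an unadjusted p below 0.05. The smallest p that 5 against 5 allow is 0.007937, so a gene could pass the adjustment only where many genes reached it. *sdc-2* entered that test only through C-, with 2 libraries above 25 RPKM.

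*sdc-3*, a zinc finger partner of SDC-2 encoded on V, stayed near 0 in both groups of C descendants. C-in held at most 0.51 RPKM and C-out at most 2.72, while C- had 35.8, 9.4, 0.64, 3.24 and 0 RPKM in embryos 1, 2, 4, 5 and 6. D+ held 82.7, 24.4, 0.85, 13.99, 0.22, 68.6 and 0.15 RPKM in embryos 1, 2, 3, 4, 6, 7 and 8, and D- ranged from 0.69 to 37.2 with a median of 19.7. MS+ ranged from 0.08 to 46.9 RPKM with a median of 0.41, and MS- from 0.85 to 28.1 with a median of 16.5. Both MS groups and both D groups overlapped, with exact permutation p of 0.1981 for MS (adjusted p = 0.4634) and 0.7809 for D (adjusted p = 0.9584). C-in against C- gave an exact permutation p of 0.06349 (adjusted p = 0.2877). *sdc-3* entered that test through 1 C- library above 25 RPKM, and the limit given for *sdc-2* in that test applies here too.

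The 3 groups of collected internalizing cells were compared with each other in the 7-group fit, again after the levels had been seen. These comparisons share their groups, and each runs across strains. In MS+ against C-in, *sdc-2* was 5.01 ± 1.21 higher in MS+ (log2 fold change ± SE, edgeR adjusted p = 0.00906) and *sdc-3* 5.14 ± 1.76 higher (adjusted p = 0.04327), while 13.9% of 6840 genes were called. In D+ against C-in, *sdc-2* was 4.25 ± 1.17 higher in D+ (edgeR adjusted p = 0.02002) and *sdc-3* 7.26 ± 1.95 higher (adjusted p = 0.0192), while 13.1% of genes were called. C-in held only 3, 1, 0, 4 and 2 *sdc-3* counts in embryos 1, 2, 4, 5 and 6. The size of both *sdc-3* fold changes therefore rests on counts near 0 and is not a measured size. The 2 *sdc-2* calls and the *sdc-3* call in D+ held without any single embryo, with adjusted p of at most 0.04897, and none of the 4 held under limma on log2(RPKM + 25). *sdc-1* was called in MS+ against C-in by DESeq2 (adjusted p = 0.04062) and limma (adjusted p = 0.04769) but not by edgeR (adjusted p = 0.1853). The *sdc-3* call in MS+ was lost in 7 of the 19 fits that left out 1 embryo, with an adjusted p of 0.1018 without MS embryo 2, which alone held more than 10.84 RPKM in that group. The other 6 were those without MS embryo 6 or any of the 5 C embryos, and it was also lost with RLE scaling, with no filter and with rejected embryos included.

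*her-1*, the secreted male-fate signal that the SDC proteins repress in XX animals, was present in some libraries and absent from others of the same group. The MS+ libraries held 222, 0.97, 84.4, 1.65, 1.01, 0.82 and 541 RPKM in embryos 1 to 7, where values up to 1.65 stand for 1 count. The MS- libraries of these embryos held 17.3, 0, 86.1, 47.3, 29.1, 0 and 66.6 RPKM. Embryos 3 and 7 thus had *her-1* above 25 RPKM in both libraries, and embryo 1 in MS+ alone, with 17.3 in MS-. Embryos 4 and 5 had it above 25 RPKM in MS- and a single count in MS+. In D+ only 1 library held any *her-1* count (2 counts, 2.05 RPKM), while D- held 117, 0, 14.7, 54.9, 90.3, 1.61 and 0 RPKM in embryos 1, 2, 3, 4, 6, 7 and 8. In the C series 3 libraries were above 25 RPKM, C-out of embryo 1 at 50.2 and C- of embryos 2 and 5 at 50.8 and 43.6, and C-in reached 3.19 RPKM in 1 library.

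By edgeR *her-1* did not pass between MS+ and MS- (log2 fold change 2.41 ± 1.503, adjusted p = 0.7199). Between D+ and D- its difference in mean log2(RPKM + 25) was -1.004 (exact permutation p = 0.0373, adjusted p = 0.2024), with D- higher in 4 of 7 embryos. *her-1* entered that test only through D-, with 3 libraries above 25 RPKM. *her-1* was higher in MS+ than in D+ (edgeR adjusted p = 0.01346), where 14.6% of 6840 genes were called, and higher in MS+ than in C-in (adjusted p = 0.03591). Since D+ and C-in held 2 *her-1* counts each, the fitted fold changes rest on the prior count and are not given. Without MS embryo 7 the adjusted p was 0.03732 against D+ and 0.08768 against C-in, and neither comparison passed under limma. The call against C-in held in 14 of 19 fits that left out 1 embryo, was also lost without C embryo 1, 2, 4 or 6, and was lost with no filter. Between MS+ and D+, DESeq2 (adjusted p = 0.02684) and limma (adjusted p = 0.04488) called *sdc-1*, which edgeR did not (adjusted p = 0.1432). The effect of collection on *her-1* was compared between the MS and D series, that is MS+ over MS- against D+ over D-, and missed the threshold (edgeR adjusted p = 0.05501), where 2.69% of genes were called.

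The same test of a difference of effects was run for every member. It called 0 of 10 members between the MS and D series by edgeR (1 at an unadjusted p below 0.05, 1 by DESeq2, 0 by limma). Between the MS effect and C-in over C- it called 0 members and 0.57% of genes, with *sdc-2*, *sdc-3* and *her-1* at an unadjusted p below 0.05, 0 by DESeq2 and 0 by limma. Between the D effect and C-in over C- it called 0 members and 0.0146% of genes, with *sdc-3* at an unadjusted p below 0.05, 1 by DESeq2 and 0 by limma. Differences in effect between the series were therefore not shown for any member by edgeR.

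*gro-1*, *C35D10.8* and *K07E3.2* had the group means most like those of *her-1*, the member with the largest ratio between its highest and lowest group (5.80 after adding 25 RPKM). Their Pearson correlations with *her-1* over the 7 group means of log2(RPKM + 25) were 0.995, 0.992 and 0.986, the highest among 6839 genes. The *gro-1* means were 109 RPKM in MS+, 23.8 in MS-, 2.24 in D+ and 26.7 in D-. With 7 points that share libraries and depth, and 1 library that carries most of the MS+ mean of *her-1*, this is a description only.

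**Figure D3:**
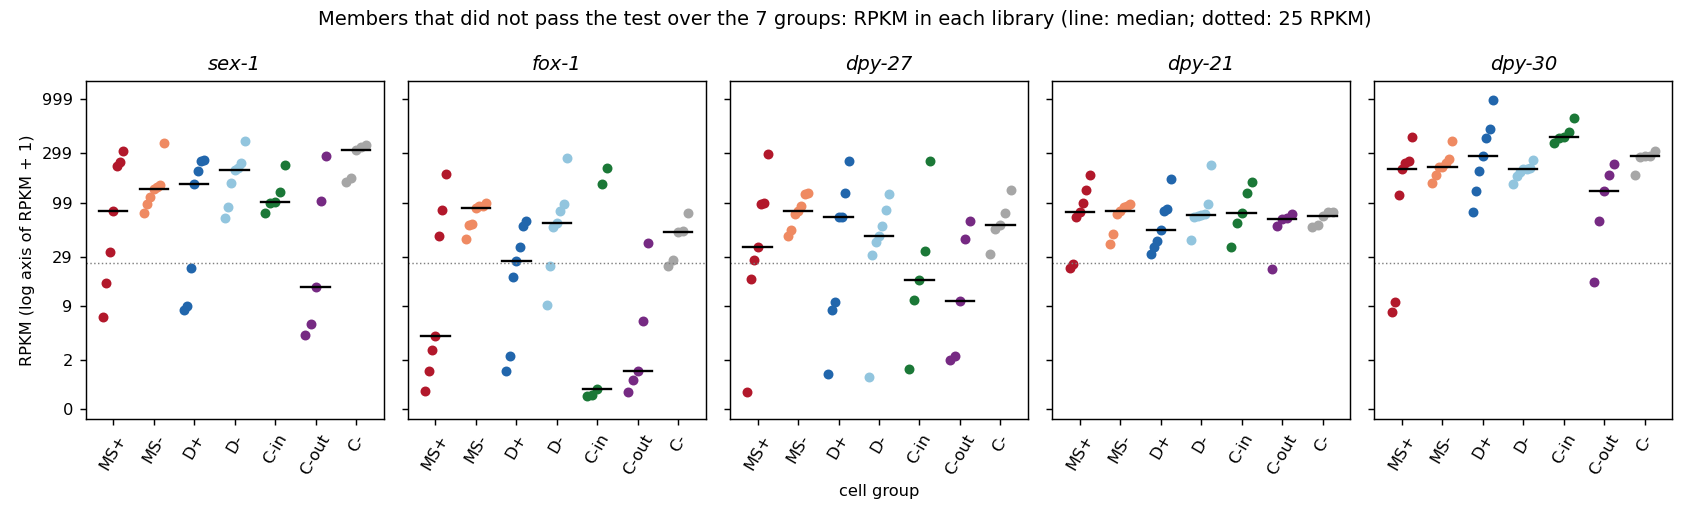
RPKM in each library, on a log axis of RPKM + 1, for *sex-1*, *fox-1*, *dpy-27*, *dpy-21* and *dpy-30* in the 7 cell groups, drawn as in the plot of the 5 members that differed. All groups overlap for *dpy-21*, and the 5 C-in libraries of *dpy-30* (376 to 655 RPKM) lie above those of C-out (15.9 to 233).

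The X signal elements *sex-1* and *fox-1* were present in all 7 groups. *sex-1* was above 25 RPKM in all D-, MS-, C-in and C- libraries, with medians of 207, 133, 101 and 324 RPKM and ranges of 69.4 to 392, 78.6 to 374, 77.6 to 228 and 156 to 361. In the other 3 groups some *sex-1* libraries fell below 25 RPKM: MS+ ranged from 6.83 to 313 (median 81.1), D+ from 8.15 to 257 (median 151) and C-out from 4.18 to 282 (median 14.3). The *sex-1* fold changes within series did not pass, and the largest was -1.71 ± 0.99 for C-out over C- (edgeR adjusted p = 0.6922). The *fox-1* level in the remainders ranged from 43.1 to 97.4 RPKM in MS-, 9.08 to 268 in D- and 23.4 to 77.3 in C-, with medians of 88.3, 62.1 and 50.6. In C-in *fox-1* was at 214 and 150.4 RPKM in embryos 1 and 5 and at most 0.57 in the other 3, and in C-out at 39.1 in embryo 1 and at most 6.09 in the rest. Its C-in over C-out log2 fold change of 3.40 ± 1.61 did not pass in edgeR (adjusted p = 0.1636) and did in DESeq2 (adjusted p = 0.01098). MS+ spread from 0.5 to 188 RPKM and D+ from 1.33 to 65.5, and neither was apart from its remainder (edgeR adjusted p = 0.9593 and 0.8288).

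*dpy-27*, the condensin subunit made for dosage compensation, had group medians between 10.2 and 82.7 RPKM. MS- ranged from 46.6 to 122 RPKM (median 82.7), and C-out had the lowest mean, at 43.1, 1.99, 10.2, 65.5 and 2.23 RPKM in embryos 1, 2, 4, 5 and 6. C-in held 249, 1.45, 32.7, 16.6 and 10.5 RPKM in these embryos, so that 1 library held most of the sum. The edgeR log2 fold changes ranged from -1.36 ± 1.15 (C-out over C-) to 1.90 ± 1.17 (C-in over C-out), with adjusted p between 0.2982 and 0.9006 over the 5 comparisons.

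*dpy-21*, the demethylase subunit, was the most even member. Its group means lay between 58.8 RPKM in C-out and 94.4 in D-, every library held at least 21.5 RPKM, and C- was the tightest group (56.7 to 80.3 RPKM, SD 11.2, n = 5). The highest libraries were D- of embryo 8 at 228 RPKM and MS+ of embryo 5 at 184. No comparison within a series passed in edgeR, with log2 fold changes between -0.13 ± 0.71 (D+ over D-) and 1.07 ± 0.77 (C-in over C-, adjusted p = 0.4395).

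*dpy-30*, shared by dosage compensation and COMPASS, was the most abundant member and the highest in C-in. The C-in libraries held 376, 418, 480.1, 430.3 and 655 RPKM in embryos 1, 2, 4, 5 and 6, the C-out libraries of these embryos 129, 15.9, 233, 182 and 65.4, and the C- libraries 282, 184, 281, 275 and 316. C-in thus lay above C-out and C- in each embryo, with no overlap of the groups. The log2 fold changes of 2.09 ± 0.93 over C-out and 1.57 ± 0.92 over C- did not pass in edgeR (adjusted p = 0.1391 and 0.3236), and both did in DESeq2 (adjusted p = 0.001818 and 0.003327). limma called the first of them. With the rejected embryos included the *dpy-30* fold change of C-in over C-out was -0.067 (edgeR adjusted p = 0.9615), and C-out of rejected embryo 3 held 881 RPKM. D+ ranged from 79.6 to 985 RPKM (median 281) around a D- range of 151 to 255, and MS+ from 7.72 to 431 around an MS- range of 154 to 389.

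**Figure D4:**
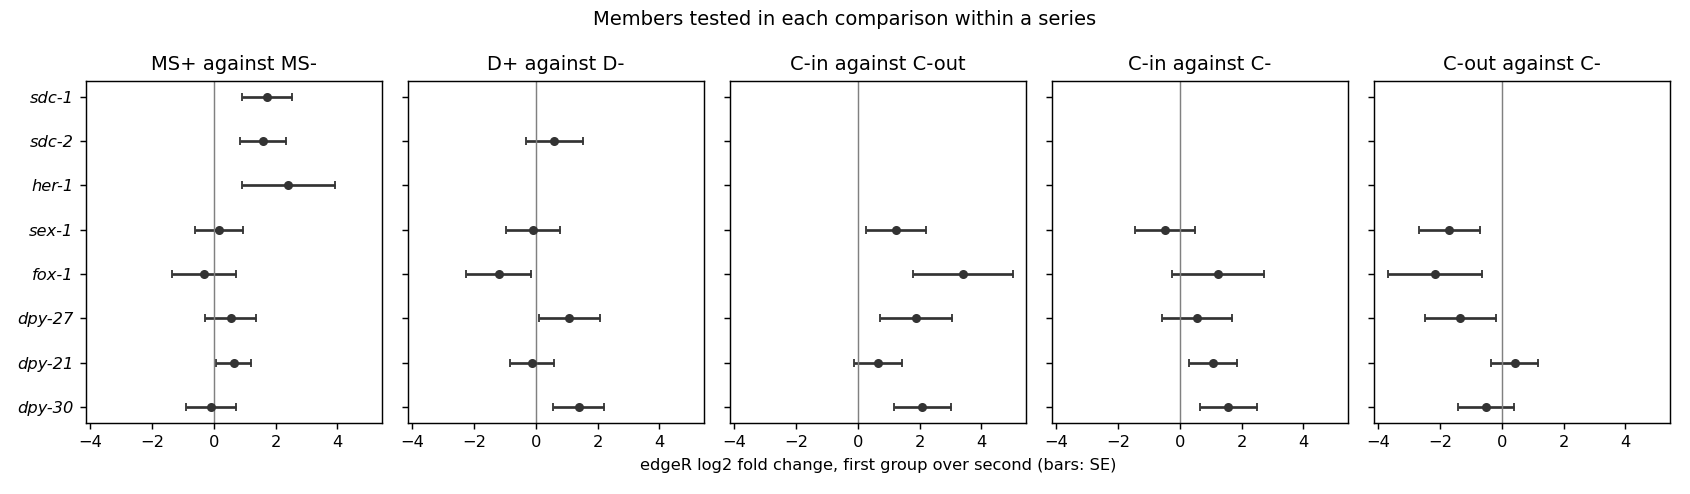
edgeR log2 fold change with its SE, first group over second, of the members that passed the filter in each of the 5 comparisons within a series (MS+ against MS-, D+ against D-, C-in against C-out, C-in against C- and C-out against C-). No point differs from 0 at an adjusted p below 0.05, and *fox-1* and *dpy-30* in C-in against C-out lie farthest to the right in that panel.

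Counted over the comparisons within a series, 8 members passed the filter in MS, 6 in D and 5 in each C comparison, and edgeR called none of them. Against a background of 0.349% of 3730 genes called between MS+ and MS-, 0 of 8 members were called (*sdc-1* and *sdc-2* at an unadjusted p below 0.05 and by DESeq2, 0 by limma). Against 0.197% of 3039 genes between D+ and D-, 0 of 6 were called (0 at an unadjusted p below 0.05, *dpy-30* by DESeq2, 0 by limma). Against 13.4% of 4592 genes between C-in and C-out, 0 of 5 were called (*fox-1* and *dpy-30* at an unadjusted p below 0.05 and by DESeq2, *dpy-30* by limma). Against 3.59% between C-in and C-, 0 of 5 were called (0 unadjusted, *dpy-21* and *dpy-30* by DESeq2, 0 by limma). Against 0% between C-out and C-, where 344 genes had an unadjusted p below 0.05, DESeq2 called 411 and limma 6, 0 of 5 members were called (0 unadjusted, 0 by DESeq2, 0 by limma). The median log2 fold change of the members tested was 0.59, 0.26, 1.90, 1.07 and -1.36 in these comparisons, beside 0.33, 0.53, 0.23, 0.48 and 0.09 over all genes tested. For members below the filter in the C series, the exact permutation test called 0% of 2748 genes in C-in against C-out. It called 0% of 3824 in C-out against C-, with 185 and 305 at an unadjusted p below 0.05. The smallest p that 5 against 5 allow is 0.007937. The adjustment passes such a p only where more genes reach it than the 185 and 305 here. No gene could pass, and the 0% is no background rate. *xol-1* in all C comparisons and *sdc-3* in C-in against C-out had no library above 25 RPKM and were not tested.

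Ordered by mean RPKM, the groups ran MS- > D- > MS+ > C-out > D+ > C- > C-in for *xol-1*, MS+ > MS- > C-in > D+ > D- > C- > C-out for *sdc-1*, MS+ > D+ > MS- > D- > C- > C-out > C-in for *sdc-2*, D+ > D- > MS- > C- > MS+ > C-out > C-in for *sdc-3* and MS+ > D- > MS- > C- > C-out > C-in > D+ for *her-1*. For *sex-1*, *fox-1*, *dpy-27*, *dpy-21* and *dpy-30* C-out came last, and the highest groups were C-, D-, MS-, D- and C-in. The first place of D- for *fox-1* and *dpy-21* rested on embryo 8 alone, at 268 and 228 RPKM. For each of the 10 members the ranges of all 6 pairs of neighbours in this order overlapped, so no step in it exceeds the spread between embryos.

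Other genes of the pathway were read from lists of names, and the counts called among the 7 groups stand beside the 33.1% called over all genes. With the embryo block and under limma 0 genes of the complex, condensin, signal and downstream lists were called among the 7 groups, so the calls of *capg-1*, *kle-2*, *sea-1*, *sea-2* and *fem-2* given here were lost in both. Of the 4 other subunits of the dosage compensation complex (*dpy-26*, *dpy-28*, *mix-1*, *capg-1*), all 4 were tested among the 7 groups and 1 was called, *capg-1* (adjusted p = 0.02766), a subunit shared with mitotic condensin, which averaged 197 RPKM in MS+ and 39.2 in C-in. *mix-1*, the SMC protein that pairs with DPY-27, averaged 121 RPKM in MS+, 150.0 in C- and 36.7 in C-out (adjusted p = 0.5247). Of 4 subunits particular to the other condensins (*smc-4*, *kle-2*, *hcp-6*, *capg-2*), 1 of 4 was called, *kle-2* (adjusted p = 0.01022), at 0.71 to 3.24 RPKM in C-in and 59.3 to 137 in C-. *capg-2* averaged 227 RPKM in MS+ and 39.3 in C-in (adjusted p = 0.09375). *sea-1* (adjusted p = 0.01574) and *sea-2* (adjusted p = 0.01673) were called among 3 further signal elements that act on *xol-1*, and *ceh-39* was not (adjusted p = 0.5222). *sea-1* was at 0 in all C-in libraries and reached 203 RPKM in 1 D+ library, and *sea-2* was at most 0.4 RPKM in C-in with a median of 19.9 in MS+. *sea-1*, *fem-2*, *tra-1* and genes named below for the call of another tool were chosen after their values were seen. Exons of several listed genes also overlap those of other genes. Among them, *kle-2*, *capg-2*, *mix-1* and *tra-2* overlap *gsto-1*, *bnc-1*, *M106.8* and *ceh-38*, protein-coding genes on the other strand. With the strand rule not given, their values carry the same uncertainty as those of the members named above.

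Of 10 genes downstream of *her-1*, 5 were tested among the 7 groups and 1 was called, *fem-2* (adjusted p = 0.0301), a phosphatase of the male-promoting FEM group, which DESeq2 did not call, calling *fem-1* instead. It reached 551 RPKM in 1 MS+ library while the MS+ median was 0.28 RPKM. *fem-1* averaged 132 RPKM in C-out and 1.9 in D+ (adjusted p = 0.06038), and *laf-1*, an RNA helicase, averaged between 13.3 RPKM in D+ and 51.4 in D- (adjusted p = 0.8422). *tra-1*, the transcription factor at the end of the pathway, did not pass the filter. Of 6 COMPASS genes, 5 were found and tested and 0 called, where edgeR gave 0 at an unadjusted p below 0.05, DESeq2 called *set-2* and *set-16* and limma *set-2*. *rbbp-5* averaged 163 RPKM in MS- and 21.6 in C-out, and *set-2* averaged 107 RPKM in D- and 20.3 in C-in. The 2 methyltransferase genes of histone H4 lysine 20, *set-1* (means of 298 RPKM in D- to 567 in C-in) and *set-4* (109 in MS+ to 225 in C-in), were both tested and 0 called (0 at an unadjusted p below 0.05, *set-1* by DESeq2, 0 by limma). In the 5 comparisons within a series edgeR called none of these listed genes, though *dpy-28* and *capg-1* in MS, *capg-1* in D, and *kle-2* and *tra-2* in C-in against C-out and against C- had an unadjusted p below 0.05. DESeq2 called *dpy-28*, *capg-1*, *capg-2* and *set-1* in MS, *capg-1* in D, *dpy-26*, *smc-4*, *kle-2* and *tra-2* in C-in against C-out, and *kle-2*, *tra-2*, *set-16* and *set-1* in C-in against C-. limma called *kle-2* in C-in against C-.

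Because the pathway acts on X, the share of gene counts on the 5741 X-linked genes was computed per library. The mean share was 11.1 ± 0.95% (SD) for the MS+ libraries against 11.5 ± 0.83% for MS-, and 12.2 ± 1.97% for D+ against 12.7 ± 0.59% for D-, with 7 libraries in each. Neither pair passed a two-sided exact permutation test (p = 0.3298 and 0.5338, adjusted over the 5 comparisons 0.4123 and 0.5338). For the C series the share was 10.8 ± 1.48% of C-in counts, 14.5 ± 0.80% of C-out counts and 12.5 ± 0.74% of C- counts (n = 5 each). C-out was 3.72 percentage points above C-in and 1.997 above C-, higher in 5 of 5 embryos both times (exact permutation p = 0.007937 for each, the smallest that 5 against 5 allow, adjusted p = 0.01984). C-in against C- did not pass (exact permutation p = 0.05556, adjusted p = 0.09259). With sign changes within embryos both C-out differences had an exact permutation p of 0.0625, the smallest that 5 pairs allow. The X share was not tested with rejected embryos included. In rejected embryo 3 C-out was the lowest, at 9.31%, against 13.96% in C-in and 13.1% in C-. In rejected embryo 7 it was the highest, at 13.19%, against 10.38% in C-in and 11.35% in C-. The summed epidermal markers were 520 to 1498 RPKM in C-out and 9.33 to 956 in C-in, and their part in the X share was not tested. A share of counts says nothing of output per X chromosome, since it depends on which X-linked genes a cell type uses.

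**Figure D5:**
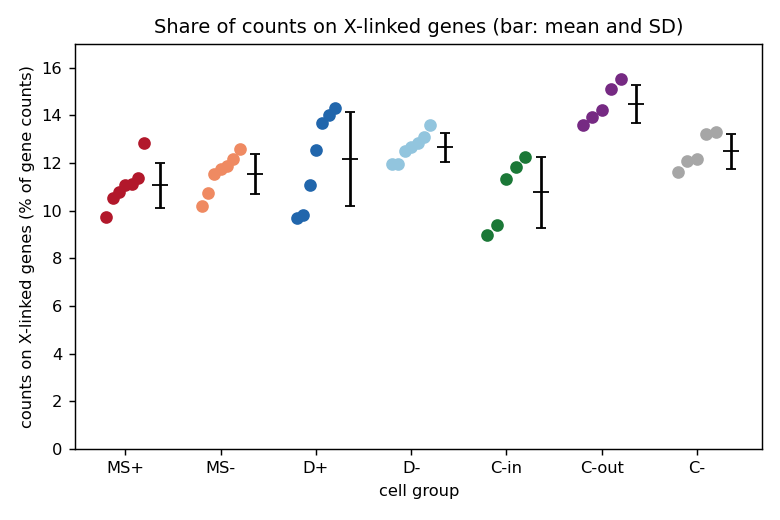
Percentage of gene counts on X-linked genes in each library of the 7 cell groups, with the group mean and SD beside the points. The C-out libraries (mean 14.5%) lie above those of C-in (mean 10.8%).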

How the data were processed

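Members and lists were chosen with earlier results of these data known. Cells were lysed and amplified to cDNA with the SMARTer Ultra Low kit, followed by Nextera XT libraries. For each of 51 libraries the authors deposited whole-number read counts per gene, unnormalized, with a gene length and RPKM, read counts scaled by the authors to gene length and mapped reads. The labels name the ce10 build and bedtools; for the aligner, the counter and the strand rule, nothing is given in these sources. A length of 2500 bases stands for 1350 genes, no member among them. The deposited coverage tracks were not used. The authors rejected 3 of 22 embryos for excess spike-in reads, leaving 43 libraries from 19.

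Counts were tested with edgeR's quasi-likelihood test (TMM scaling, groups only, Benjamini-Hochberg over all genes tested, threshold 0.05) on genes above 25 RPKM in a minimum of 7 libraries (MS, D) or 5 (C, fitted as 3 groups, and the 7-group fit). SE is the log2 fold change divided by the root of F. Genes below the filter were compared by an exact permutation test on log2(RPKM + 25), and the adjustment of these p over all such genes was added after seeing the data. Replicates are single embryos. The series' text matches the libraries of an embryo, so same-numbered libraries pair, although after removal of group means their mean correlation was only 0.033 (MS), 0.024 (D) and 0.029 (C), and that of libraries from different embryos -0.005, -0.004 and -0.007.

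Alternatives were RLE scaling, DESeq2, limma on log2(RPKM + 25), no filter, the embryo block, rejected embryos included, each embryo left out, 2 C groups fitted alone, a pseudocount of 1, and group medians, the X share of summed RPKM, and TMM-scaled counts per kilobase as levels. Contrasts between series were added after seeing the data. All 10 members are described. Listed genes are given as counts, with values for those called within a series or else the 2 of highest mean per list. The gene with the most alike group means was sought for the member of largest ratio between groups. Identifiers and chromosomes came from Ensembl WBcel235; *wdr-5.1* was not matched by name, and *rbbp-5* and *cfp-1* were matched by locus tag. Scripts were tested on simulated data. Software was R 4.3.3, edgeR 4.0.16, limma 3.58.1, DESeq2 1.42.0, Python 3.11.15, numpy 2.4.6, pandas 2.3.3 and matplotlib 3.10.9.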

Additional observations from a re-analysis of the deposited data

Results flagged for a closer look

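A single library stood apart from the others of its group in 12 of 70 member and group combinations, on log2(RPKM + 25). About 1 in 20 groups would be flagged by chance if the values were normally distributed. Where all other libraries are at 0, any single nonzero value is flagged, so the 12 of 70 cannot be read against that rate. High single libraries were *xol-1* in C-out of embryo 2 (1.17 RPKM from 2 counts, the others at 0), *sdc-1* in D+ of embryo 7 (106.48 RPKM, next 5.65) and in C-in of embryo 1 (82.54 RPKM, next 3.59), *sdc-3* in MS+ of embryo 2 (46.89 RPKM, next 10.84) and *her-1* in D+ of embryo 7 (2.05 RPKM from 2 counts), in C-in of embryo 5 (3.19 RPKM from 2 counts) and in C-out of embryo 1 (50.21 RPKM from 70 counts), where the others were at 0. The 3 values from 2 counts lie within the 3 counts that a count of 0 allows, so these libraries cannot be told from the others. So were *sex-1* in MS- of embryo 2 (373.72 RPKM, next 146.11) and *fox-1* in C-out of embryo 1 (39.11 RPKM, next 6.09). Low single libraries were *sdc-1* in MS+ of embryo 2 (0.41 RPKM, next 67.17), *dpy-21* in C-out of embryo 4 (21.52 RPKM, next 58.21) and *dpy-30* in C- of embryo 2 (184.46 RPKM, next 275.4).

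In the libraries of rejected embryos 3 and 7 of the C series, which entered only the alternative fits with rejected embryos, 3 members lay above every accepted library of their group in both embryos. *xol-1* in C- was at 4.45 and 5.98 RPKM (18 and 15 counts), against at most 0.35 in accepted embryos. *sdc-2* in C-in was at 39.96 and 23.34 RPKM (41 and 44 counts), against at most 10.95. *sdc-3* in C-in was at 8.23 and 5.97 RPKM, from 6 and 8 counts, against at most 0.51. These 2 C-in libraries held 103134 and 185530 counts on genes, against at least 1083767 in accepted C-in libraries.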

How the results depend on the processing

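Precision was limited by spread and zeros: 21 and 22 libraries held no count of *her-1* and *xol-1*. By DESeq2, members called were 2 in MS, 1 in D, 2 in C-in against C-out, 2 in C-in against C-, 1 in the MS and D difference of effects, 1 in the D and C-in difference, 4 in MS+ against D+, 5 in MS+ against C-in, and 1 in each of MS- and D- against C-. By limma they were 1 in C-in against C-out, 2 among the 7 groups, 1 in MS+ against C-in and 1 in MS+ against D+ (both *sdc-1*, no call of edgeR), 0 in D+ against C-in and 1 in MS- against C-. The MS and D difference of effects had 1 with RLE scaling and 1 with rejected embryos included, and MS+ against C-in had 1 without a filter. With the embryo block, 1 member was called among the 7 groups, and X shares differed by the same -3.72 (C-in against C-out) and 1.997 (C-out against C-) percentage points at an exact permutation p of 0.0625. It also ended the call of *xol-1* in MS+ against MS- (adjusted p = 0.2163) and changed no other call of a member within a series or in a difference of effects. It was not run for contrasts between series, which it removes by construction.

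Leaving out embryos gave 3 to 6 members among the 7 groups (3 without MS embryo 7), 0 to 1 in the MS and D difference of effects (1 without D embryo 7 or C embryo 1, 2 or 6), 1 to 2 in MS+ against D+ (2 without D embryo 7) and 1 to 3 in MS+ against C-in (1 without C embryo 2, 4 or 6). Of 1683 recomputed member values 114 changed sign, 0 of them past the threshold, and 3 of 140 levels moved beyond an SD. Over all alternatives the genes called ranged from 4 to 416 in MS (13 as reported), 0 to 512 in D (6), 125 to 1296 in C-in against C-out (615), 0 to 1468 in C-in against C- (165), 0 to 552 in C-out against C- (0) and 823 to 8953 among the 7 groups (2263). With RLE scaling the log2 fold change at the median gene moved from 0.33 to 0.92 in MS, 0.53 to 1.42 in D, 0.23 to 0.49 in C-in against C-out, 0.48 to 1.45 in C-in against C- and 0.09 to 0.69 in C-out against C-. Leaving out D embryo 8 raised the genes called between D+ and D- from 6 to 64, and leaving out any other D embryo gave 0. The cause of these changes was not tested.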
